A study of Mus musculus with 12 samples.

Results

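Of the 19 mouse Wnt genes present in the count table, 10 (Wnt3, Wnt3a, Wnt4, Wnt5a, Wnt5b, Wnt7a, Wnt7b, Wnt9a, Wnt10a and Wnt10b) were taken by symbol as ligands linked to epithelium and read in every library of the series. The table holds 55367 genes, and all 10 symbols were found in it. The rule uses symbols and no measured level, but the members were chosen with earlier results of these data known. The series measured poly(A) RNA by sequencing in organoids, epithelium kept in culture as small 3-dimensional bodies, of 2 lines named for their papilla of origin on the mouse tongue: CVP for the circumvallate and FoP for the foliate papilla, both large taste papillae at its back. Of each line 3 cultures were sequenced in duplicate, namely wild type and 2 clones that carry the label Foxe1 knock-out with genetic modification as treatment: clones 2.9 and 2.10 in the CVP line and clones 2.4 and 2.5 in the FoP line. The 12 libraries thus comprise 2 wild type libraries and 4 libraries of labelled clones in each line. Whether the 2 wild type libraries of a line come from the same culture is not given. They are treated here as if they did. Foxe1 encodes a forkhead transcription factor, and the study asked what its loss does in these cells. The strain, age and sex of the mice, the culture medium and the way in which Foxe1 was altered are not given in the sources used here.

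Wnt proteins are secreted glycoproteins that carry a lipid added by Porcupine, leave the cell with the carrier Wntless and bind Frizzled receptors on nearby cells. With an Lrp co-receptor this binding stabilises beta-catenin, which acts on genes together with TCF/LEF factors, and other Frizzled complexes act through planar cell polarity or calcium without beta-catenin. In the tongue, Wnt and beta-catenin signalling is known for placing the taste papillae in the embryo and for the renewal of taste cells from Lgr5-positive progenitors in the adult. A ligand made by the epithelium itself can act on the cell that makes it or on its neighbours.

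Libraries held 59.3 to 73.6 M counts with 21421 to 22602 genes detected, and levels are given as CPM, counts scaled by library, of which 1 unit stood for 57.6 to 72.0 counts. The duplicates come from the same clone or carry the same wild type name, so the p-values measure only the spread between these libraries, which may be technical. The labels call none of the wild type libraries a clone, so Foxe1 genotype and derivation of a clone cannot be told apart. The Foxe1 transcript did not separate the labels: against its own wild type it was higher in clones 2.9 and 2.4 (log2 fold change 0.57 and 0.39) and lower in clones 2.10 and 2.5 (-0.98 and -0.51), with 487 to 1527 counts in the 8 libraries of labelled clones. Every direction given for the labelled clones therefore rests on the labels. The 7 epithelial markers summed to 9939 to 10415 CPM in CVP wild type and 12818 to 15232 CPM in its clones. In FoP they summed to 11476 to 11549 and 11090 to 13929 CPM. In CVP 2 of them rose, Krt5 (0.58) and Krt14 (1.37), and 3 fell, Epcam (-0.53), Krt18 (-0.57) and Trp63 (-0.34). In FoP 1 rose, Trp63 (0.41), and 1 fell, Krt18 (-0.34). The 10 taste cell markers summed to 26.8 to 27.7 CPM in CVP wild type and 16.2 to 20.3 CPM in its clones, and to 21.4 to 23.7 and 20.9 to 22.2 CPM in FoP. Of the 4 tested, 3 fell in CVP and 1 in FoP: Entpd2 held 919 to 1567 counts, Tas1r3 46 to 183, and Otop1 162 and 216 in CVP wild type against 0 to 9 in its clones, while Car4 stood at 0 in every library and Gnat3 at 0 or 1. The remaining tested marker, Pou2f3, leaned upward without an edgeR call, at 0.81 in CVP (adjusted p = 0.195) and 1.14 in FoP (0.104). Trpm5, not tested, held 2 counts in each CVP wild type library and 3 to 15 in the CVP clones. Sums of 10 fibroblast markers were 31.0 to 31.1 CPM in CVP wild type and 7.05 to 15.8 CPM in the CVP clones, and 24.99 to 25.9 and 7.90 to 17.1 CPM in FoP. In wild type Prrx1 held most of these counts, Pdgfra was called higher in the clones of both lines (log2 fold change 2.05 and 1.51), and Lum was at 0 in all 12 libraries. Sums of 8 immune markers were 30.8 to 43.3 CPM in CVP wild type against 1.49 to 2.49 CPM in its clones, and 17.5 to 17.6 against 4.32 to 5.46 CPM in FoP, with Ptprc at 0 in all libraries and Lyz2 at 0 in all 8 libraries of labelled clones. Of 10 salivary gland markers, 5 fell and 1 rose in CVP and 4 fell and 2 rose in FoP; their sum, mostly Ltf, was 7281 to 8383 CPM in CVP wild type and 6690 to 11740 CPM in its clones, and 5117 to 5149 against 10971 to 12904 CPM in FoP. Among them the saliva genes Muc5b (-9.07 and -7.31) and Bpifa1 (-9.58 and -5.19) and the secretory regulator Spdef (-2.26 and -1.42) fell in both lines. Sox9 rose in both (0.53 and 0.40), and Ltf rose in FoP (1.27) and was at 0.24 in CVP without a call. Of 9 tested lingual keratinocyte markers, 6 fell and 1 rose in CVP and 4 fell and 0 rose in FoP. Krtdap was at -5.16 and -2.71, and Krt10 rose by 0.66 in CVP. The 10 listed summed to 836 to 1038 CPM in CVP wild type and 936 to 1202 CPM in its clones. In FoP the sums were 1350 to 1454 and 1197 to 1705 CPM. All these marker counts stand beside 22.9% of all tested genes called lower and 23.5% higher in CVP, and 15.3% and 13.5% in FoP. The part of these cell types in the results on the ligands was not tested.

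Scaled for length, 6 of the 10 ligands were well expressed and 4 were near 0. Levels between genes were compared as CPM per kb of exon, using exon lengths from the GENCODE M21 annotation of GRCm38. Wnt10a, whose loss in mouse and human is known for defects of teeth, skin appendages and tongue papillae, was the most abundant Wnt transcript in every library. It stood at 23.2 ± 1.95 CPM per kb (SD, n = 2) in CVP wild type and 25.6 ± 1.38 (n = 2) in FoP wild type. Wnt7b, known for its role in lung and kidney epithelium, followed with 17.7 ± 1.05 and 18.7 ± 0.957 CPM per kb in the same groups. Wnt5a and Wnt5b, ligands best known for signalling without beta-catenin, stood at 10.5 ± 0.226 and 8.81 ± 0.164 CPM per kb in CVP wild type. Wnt4 and Wnt9a stood at 6.68 ± 0.204 and 6.02 ± 0.691 there. The other ligands were near 0: Wnt7a was at 0.251 ± 0.0159 and Wnt10b at 0.0292 ± 0.00482 CPM per kb in CVP wild type. Together the 10 ligands made up 93.9% ± 0.989 to 95.2% ± 0.172 of the length-scaled level of all 19 Wnt genes, taking the mean of each line and label. Most of the remainder was Wnt11, with 3.28 ± 0.697 CPM per kb in CVP wild type.

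**Figure D1:**
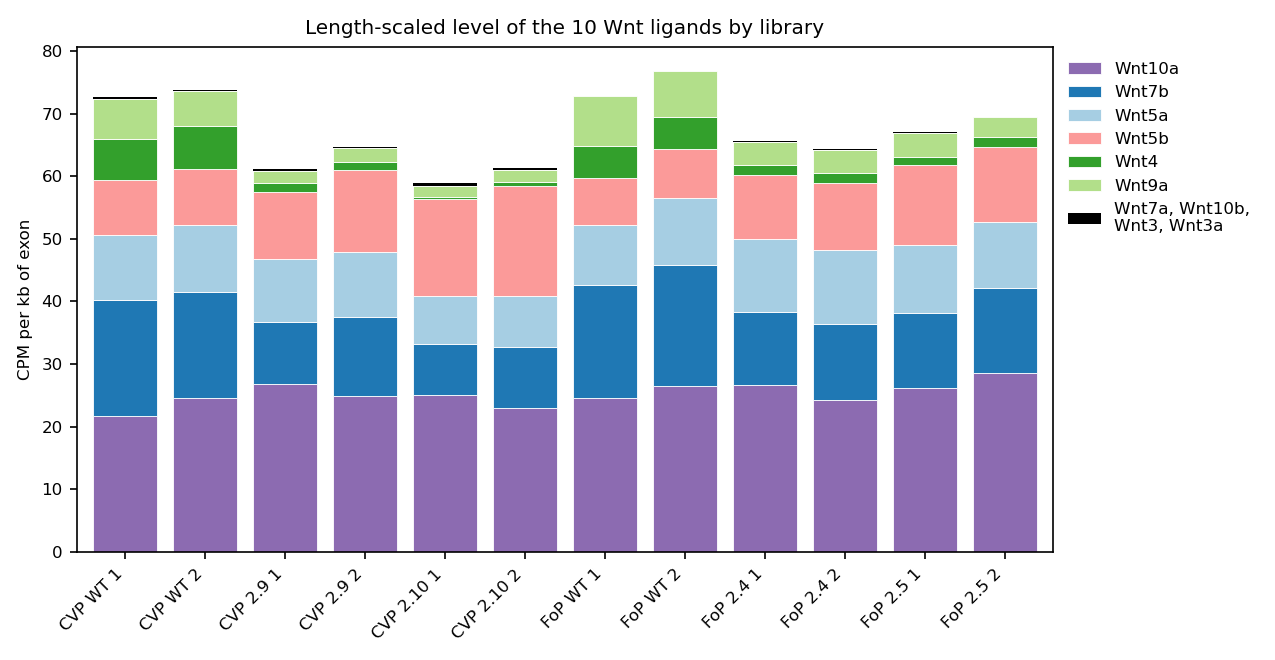
Length-scaled level of the 10 ligands in each library: bars show CPM per kb of exon on the vertical axis, stacked by ligand, with 1 bar per library and the 2 bars of a culture side by side. The sum is 72.7 to 76.8 in the 4 wild type libraries and 58.9 to 69.5 in the 8 libraries of labelled clones, while the Wnt10a segment has about the same height throughout and the Wnt4 and Wnt9a segments shrink.

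Wnt3a, which is known for somite and hippocampus formation, had 0 counts in all 12 libraries. A count of 0 allows up to 3 counts, or 0.0416 to 0.0521 CPM depending on the library. Wnt3, known for limb and tooth epithelium, had 1 count in 1 library of clone 2.5 and 0 counts in the other 11. These 2 genes entered no test. The other 8 ligands passed the filter on low counts and were tested with edgeR among 17076 genes.

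Of the 8 tested ligands, 5 were called the same way in both lines when the labelled clones were set against wild type. Wnt4, Wnt7b and Wnt9a fell in CVP and in FoP, and 10.1% of all tested genes were called lower in both lines. Wnt5b and Wnt10b rose in both, as did 9.20% of all tested genes. Wnt7a fell in CVP, and Wnt5a and Wnt10a were called in neither line. In CVP this makes 4 ligands lower and 2 higher, beside 22.9% of all tested genes called lower and 23.5% called higher. In FoP it makes 3 lower and 2 higher, beside 15.3% and 13.5% of all tested genes. The median log2 fold change of the 8 ligands was -0.52 in CVP and 0.10 in FoP, beside 0.03 and 0.01 over all tested genes. Many genes were thus called in both lines with libraries kept apart, and the counts of ligands stand on that background. The background depends on the treatment of duplicates. Summed per culture, 3420 genes were called in CVP (7929 with libraries apart) and 372 in FoP (4921). The libraries are of bulk RNA, in which fewer cells of a type and less RNA per cell cannot be told apart.

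The upstream sequences of 4 of these 5 ligands, those with an entry in the RefSeq promoter table (GRCm38.p6), are shown so that ligands called lower and ligands called higher in both lines can be compared. Each runs 5′ to 3′ on the strand of the gene and ends at the base before its first annotated start, and capitals mark CpG dinucleotides, the sites of DNA methylation.
Wnt4 (chr4:137277385-137277488, plus strand, fell): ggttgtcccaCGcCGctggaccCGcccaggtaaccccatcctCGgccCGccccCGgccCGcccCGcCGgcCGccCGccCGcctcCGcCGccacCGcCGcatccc
Wnt9a (chr11:59306680-59306927, plus strand, fell): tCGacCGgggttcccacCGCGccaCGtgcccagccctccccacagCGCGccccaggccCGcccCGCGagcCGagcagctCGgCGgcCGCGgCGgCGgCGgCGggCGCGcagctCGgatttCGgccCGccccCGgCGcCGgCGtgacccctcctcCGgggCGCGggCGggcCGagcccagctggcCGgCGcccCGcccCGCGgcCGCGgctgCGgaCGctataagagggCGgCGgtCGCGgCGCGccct
Wnt5b (chr6:119544348-119544597, minus strand, rose): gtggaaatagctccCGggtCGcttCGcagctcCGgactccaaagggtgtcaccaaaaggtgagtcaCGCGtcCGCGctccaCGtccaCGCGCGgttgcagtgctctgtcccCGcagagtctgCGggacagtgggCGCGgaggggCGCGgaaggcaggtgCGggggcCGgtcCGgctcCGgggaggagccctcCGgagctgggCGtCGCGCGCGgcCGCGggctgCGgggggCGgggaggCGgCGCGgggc
Wnt10b (chr15:98778151-98778400, minus strand, rose): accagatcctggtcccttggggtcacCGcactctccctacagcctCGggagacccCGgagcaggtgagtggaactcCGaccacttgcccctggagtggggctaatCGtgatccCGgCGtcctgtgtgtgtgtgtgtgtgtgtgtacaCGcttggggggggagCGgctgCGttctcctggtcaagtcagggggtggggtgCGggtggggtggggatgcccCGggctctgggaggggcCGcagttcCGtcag
The stretches hold 16 CpG in 104 bases for Wnt4, 48 in 248 for Wnt9a, 35 in 250 for Wnt5b and 14 in 250 for Wnt10b. The median over all 250-base RefSeq windows was 6 CpG, with 52.4% G or C. Before the first annotated start, a CpG content above that median was shared by ligands that fell and ligands that rose. The windows before starts 2 and 3 of Wnt5b held 4 and 7 CpG, close to the median. Of the 10 ligands, 7 had an entry, with 9 windows in all because Wnt5b has 3 starts. Neither strand of these 9 windows held the letters TGTTTA, the core of a forkhead motif, which occur in 12.03% of 32851 windows. CTTTGA, the core of a TCF/LEF motif, occurs in 13.8% of the windows and was found in 1 of the 9, before the third start of Wnt5b. That match overlaps no match of the forkhead letters, and a match describes the letters alone.

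Wnt4, known for kidney tubule formation and the female reproductive tract, fell furthest among the ligands that are well expressed. The gene lies on chromosome 4 (137277489 to 137299726, plus strand, GRCm38) with 5 exon blocks. In CVP wild type its 2 libraries stood at 27.4 and 28.6 CPM (1871 and 2061 counts). Clone 2.9 stood at 6.08 and 5.85 CPM, and clone 2.10 at 1.49 and 2.37 CPM, or 99 and 153 counts. All 4 libraries of the CVP clones were below both wild type libraries, and clone 2.10 lay well below clone 2.9. The log2 fold change of the CVP clones was -2.83 ± 0.44 (SE; adjusted p = 0.000616), a call that ended when duplicates were summed per culture (-2.83, adjusted p = 0.0713). FoP wild type stood at 21.5 and 21.7 CPM, clone 2.4 at 6.78 and 6.50 CPM and clone 2.5 at 5.64 and 6.25 CPM. The FoP groups did not overlap either, and their clones lay close together. Wnt4 fell there by 1.78 ± 0.43 on the log2 scale (adjusted p = 0.0135), a call that ended when either FoP wild type library (adjusted p = 0.0656 and 0.0674) or either FoP clone (0.0642 and 0.0837) was left out, with values of -1.85 to -1.70, or when duplicates were summed (-1.78, adjusted p = 0.241). The effects in the 2 lines differed by 1.05 ± 0.64, which was not called (adjusted p = 0.31).

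Wnt9a, known for joint formation, showed the steadiest drop. It lies on chromosome 11 (59306928 to 59333552, plus strand) with 4 exon blocks. CVP wild type held 21.7 and 18.4 CPM, clone 2.9 held 6.34 and 7.32 CPM and clone 2.10 held 5.96 and 6.42 CPM. FoP wild type held 26.3 and 24.2 CPM, clone 2.4 held 12.2 and 12.4 CPM and clone 2.5 held 12.7 and 10.8 CPM. Wild type libraries were above every library of the clones of their line, and the clones of a line overlapped each other. Wnt9a fell by 1.62 ± 0.10 on the log2 scale in CVP (adjusted p = 4.2e-07) and by 1.07 ± 0.10 in FoP (adjusted p = 1.42e-05). The call held under all 25 alternative settings in both lines. The drop was larger in CVP by 0.55 ± 0.15 (adjusted p of the difference 0.0235). That difference lost its call in 7 of 25 settings, among them without CVP wild type duplicate 1 (0.43, adjusted p = 0.142), without FoP wild type duplicate 1 or 2 (adjusted p = 0.0618 and 0.113), without clone 2.10 (0.0516), without clone 2.4 (0.0514) and with duplicates summed (0.248).

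Wnt7b moved less in size but from a high level. It lies on chromosome 15 (85535437 to 85582473, minus strand) with 8 exon blocks. CVP wild type stood at 90.6 and 83.3 CPM, clone 2.9 at 48.2 and 62.4 CPM and clone 2.10 at 39.7 and 47.5 CPM. FoP wild type stood at 88.1 and 94.7 CPM, clone 2.4 at 56.8 and 60.0 CPM and clone 2.5 at 59.1 and 66.6 CPM. Again no clone library reached its wild type. The log2 fold change was -0.81 ± 0.13 in CVP (adjusted p = 0.000558) and -0.59 ± 0.14 in FoP (adjusted p = 0.00757). The FoP call ended with duplicates summed (adjusted p = 0.112), without FoP wild type duplicate 2 (0.0711) and without clone 2.4 (0.0579). An antisense gene, AU022754, shares 324 exonic bases with Wnt7b. Whether reads were counted by strand is not known from the sources used here, and the antisense gene itself held 2 to 28 counts beside 2635 to 6185 for Wnt7b.

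Wnt7a, the closest relative of Wnt7b and known for limb and uterine patterning, had low counts that separated 1 culture from all others. CVP wild type held 52 and 60 counts. Clone 2.9 held 1 and 5 counts and clone 2.10 held 0 and 2. FoP wild type held 2 and 10 counts, clone 2.4 held 4 and 9 and clone 2.5 held 12 and 2. Only CVP wild type stood above the rest, and FoP wild type lay among the clones. Per scaled count, CVP wild type was 25.8 times as high as its clones (95% counting interval 12.7 to 61.2). Such intervals cover counting error only. The fitted log2 fold change in CVP was -4.60 ± 0.83 (adjusted p = 0.000588), and that in FoP was 0.18 ± 0.88 (adjusted p = 0.904). At such low counts a fitted value moves with the prior count that edgeR adds. FoP wild type was itself near 0, so a fall in FoP could hardly be seen. The effects differed by 4.78 ± 1.25 (adjusted p = 0.0225), and this call ended without either CVP wild type library (adjusted p = 0.0682 and 0.0642) and without FoP wild type duplicate 1 (0.0995), and with duplicates summed (0.193).

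Wnt5b, known for cartilage growth, was the abundant ligand that rose. It lies on chromosome 6 (119432531 to 119544347, minus strand) with 7 exon blocks. CVP wild type stood at 23.1 and 23.7 CPM, clone 2.9 at 28.2 and 34.5 CPM and clone 2.10 at 40.9 and 46.8 CPM. FoP wild type stood at 20.2 and 20.7 CPM, clone 2.4 at 27.3 and 28.4 CPM and clone 2.5 at 33.6 and 32.0 CPM. Each clone library exceeded both wild type libraries of its line. Wnt5b rose by 0.69 ± 0.17 on the log2 scale in CVP (adjusted p = 0.0058) and by 0.57 ± 0.17 in FoP (adjusted p = 0.0247). Without CVP wild type duplicate 1 the CVP value was 0.67 (adjusted p = 0.0524), and with duplicates summed it was 0.68 (0.127). The FoP call ended in 8 of 25 settings, with 0.55 and 0.59 (adjusted p = 0.141 and 0.116) when FoP wild type duplicate 1 or 2 was left out, 0.52 and 0.54 (0.0546 and 0.0509) without clone 2.5 duplicate 1 or 2, and 0.45 (0.126) without clone 2.5.

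Wnt10b, known for mammary and hair placodes and found in developing tongue papillae, rose from near 0. CVP wild type held 6 and 8 counts, clone 2.9 held 61 and 32 and clone 2.10 held 99 and 82. FoP wild type held 5 and 0 counts, clone 2.4 held 22 and 30 and clone 2.5 held 12 and 4. The CVP groups were far apart, whereas clone 2.5 overlapped FoP wild type. Per scaled count the CVP clones were 10.6 times as high as wild type (95% counting interval 6.22 to 19.7) and the FoP clones 7.08 times (2.89 to 22.5). The fitted log2 fold change was 3.38 ± 0.82 in CVP (adjusted p = 0.00438) and 2.76 ± 0.94 in FoP (adjusted p = 0.0434). Without CVP wild type duplicate 1 the CVP value was 3.22 (adjusted p = 0.0537), and with duplicates summed it was 3.39 (0.0697). The FoP call is the least secure of the 5, ending in 13 of 24 settings with adjusted p-values up to 0.245. Without clone 2.4 its log2 value was 1.75 (adjusted p = 0.219), and without FoP wild type duplicate 2 it was 1.85 (0.245). Leaving out any of 7 other libraries (either CVP wild type library, clone 2.9 duplicate 1, clone 2.10 duplicate 2, either library of clone 2.4, or clone 2.5 duplicate 1) also ended it, with adjusted p-values of 0.0524 to 0.0876. Without FoP wild type duplicate 1, which leaves wild type at 0 counts, the fitted value was 7.12.

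**Figure D2:**
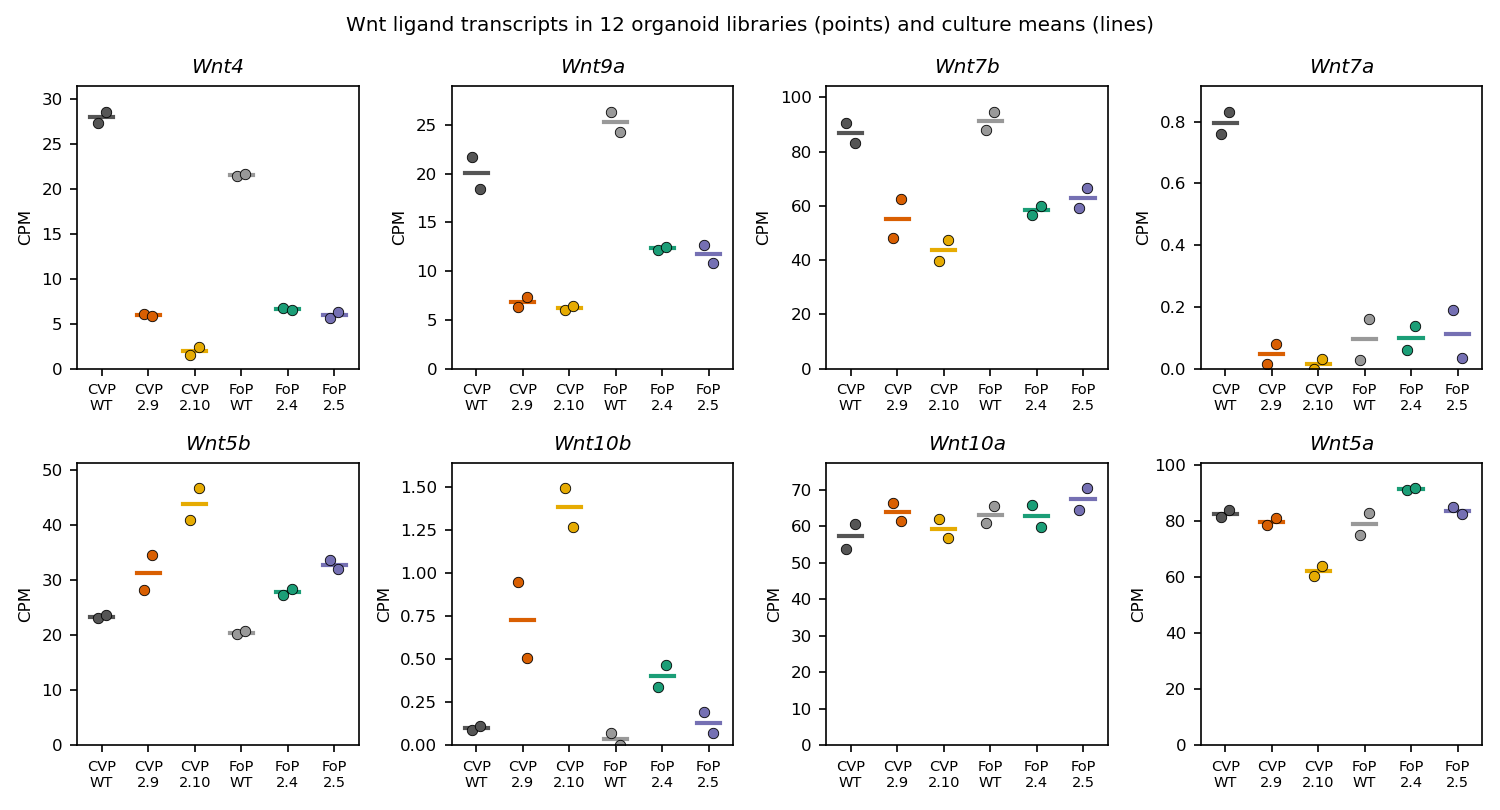
CPM of the 8 tested ligands, 1 panel each with a linear vertical axis from 0: points are libraries, short lines are the means of the 2 duplicates, and cultures run from CVP wild type to FoP clone 2.5. Wnt4, Wnt9a and Wnt7b are lower in all 4 clones than in the wild type of their line, Wnt5b is higher, Wnt7a is high in CVP wild type alone, and Wnt10a is level.

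Wnt5a and Wnt10a, among the most abundant ligands per length, were called in neither line. Wnt10a lies on chromosome 1 (74791516 to 74804179, plus strand), and ranged from 53.7 to 70.4 CPM over all 12 libraries with every culture overlapping its neighbour in rank. Its log2 fold change was 0.11 ± 0.08 in CVP (adjusted p = 0.281) and 0.05 ± 0.08 in FoP (adjusted p = 0.713). Wnt5a, known for outgrowth of limb and face, lies on chromosome 14 (28504750 to 28527448, plus strand). It stood at 81.3 and 83.8 CPM in CVP wild type, 78.7 and 80.9 CPM in clone 2.9, and 60.5 and 63.8 CPM in clone 2.10. In FoP it stood at 75.0 and 82.8 CPM in wild type, 91.2 and 91.7 CPM in clone 2.4, and 84.9 and 82.4 CPM in clone 2.5. The CVP clones lay below wild type, by far the most so in clone 2.10, and the FoP groups overlapped. The log2 fold change was -0.22 ± 0.11 in CVP (adjusted p = 0.115) and 0.15 ± 0.11 in FoP (adjusted p = 0.333). Without clone 2.9, the CVP value became -0.41 and was called (adjusted p = 0.000658). It was called too without clone 2.9 duplicate 2 (-0.29, adjusted p = 0.0313). An antisense gene, Gm2670, shares 358 exonic bases with Wnt5a and held 13 to 39 counts beside 4016 to 6036 for Wnt5a.

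Counted by overlap in place of the test, 5 ligands were lower and 2 higher in every library of the CVP clones than in both wild type libraries, beside 30.0% and 31.7% of all tested genes. In FoP 3 were lower and 1 was higher, beside 25.8% and 23.9%. The ligand that overlap adds in CVP is Wnt5a, and the one it drops in FoP is Wnt10b.

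Set against its own wild type, each clone was fitted singly in a model of the 6 cultures. Wnt4, Wnt7b and Wnt9a were called lower in each of 4 clones, as were 8.08% of all tested genes. Wnt5b was called higher in each of 4 clones, as were 6.71% of all tested genes. Called in either direction were 6 of 8 ligands in clone 2.9, 7 in clone 2.10, 6 in clone 2.4 and 4 in clone 2.5. The shares of all tested genes called in these clones were 47.1%, 49.6%, 32.4% and 34.4% in the same order. Wnt4 had a log2 fold change of -2.23 ± 0.14 in clone 2.9, -3.86 ± 0.16 in clone 2.10, -1.70 ± 0.14 in clone 2.4 and -1.86 ± 0.14 in clone 2.5. Wnt9a ranged from -1.69 ± 0.12 in clone 2.10 to -1.04 ± 0.11 in clone 2.4, and Wnt7b from -0.996 ± 0.12 in clone 2.10 to -0.54 ± 0.12 in clone 2.5. Leaving out clone 2.5 duplicate 1 ended the Wnt7b call in that clone (-0.46, adjusted p = 0.0543). Wnt5b ranged from 0.42 ± 0.09 in clone 2.9 to 0.91 ± 0.09 in clone 2.10. Wnt5a went opposite ways, falling by 0.41 ± 0.06 in clone 2.10 (adjusted p = 3.7e-05) and rising by 0.21 ± 0.06 in clone 2.4 (adjusted p = 0.00996). The rise in clone 2.4 lost its call without FoP wild type duplicate 1 (0.14, adjusted p = 0.137) and without clone 2.4 duplicate 2 (0.21, adjusted p = 0.0501). Wnt10b was called higher in clones 2.9, 2.10 and 2.4, with 1.75 ± 0.90 in clone 2.5 (adjusted p = 0.156). Without FoP wild type duplicate 1, which leaves the wild type library at 0 counts, Wnt10b was called in clone 2.5 as well (adjusted p = 0.0312).

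**Figure D3:**
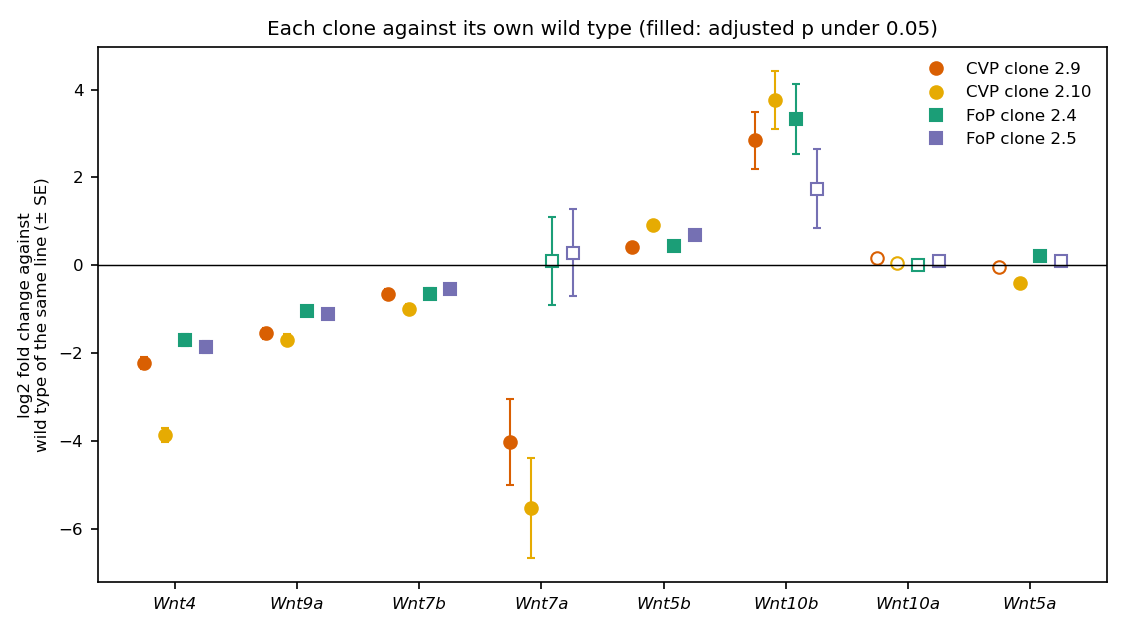
Log2 fold change of each clone against the wild type of its line, with SE bars: circles are CVP clones, squares FoP clones, and filled points have an adjusted p under 0.05. Wnt4, Wnt9a and Wnt7b lie below 0 in all 4 clones and Wnt5b above 0, while Wnt7a lies below 0 in the CVP clones and near 0 with wide bars in the FoP clones.

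The 2 clones of the CVP line differed from each other in 3 of the 8 ligands, beside 5.42% of all tested genes. Clone 2.10 had less Wnt4 than clone 2.9 (log2 -1.63 ± 0.16, adjusted p = 1.31e-05), less Wnt5a (-0.36 ± 0.06, adjusted p = 0.00128) and more Wnt5b (0.48 ± 0.09, adjusted p = 0.00483). For Wnt5b the call ended without clone 2.9 duplicate 1 (0.34, adjusted p = 0.068). Wnt7b was at -0.34 ± 0.12 (adjusted p = 0.174) and was called without that library (-0.52, adjusted p = 0.0155), by DESeq2 (-0.35, adjusted p = 0.0424), which called 4 of the 8 ligands, and by edgeR without a filter (-0.34, adjusted p = 4.84e-05). Foxe1 itself was lower in clone 2.10 by 1.55 on the log2 scale. Clones 2.5 and 2.4 of the FoP line differed in 0 of the 8 ligands by edgeR and in 0 by DESeq2, with 3 at an unadjusted p under 0.05, beside 7.26% of all tested genes called by edgeR. Foxe1 was lower there in clone 2.5 by 0.90 on the log2 scale.

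The 2 wild type cultures differed in 0 of the 8 ligands by edgeR, and in 0 of the 7 to which DESeq2 gave an adjusted p, beside 6.68% of all tested genes called by edgeR. Wnt7a and Wnt9a (2 ligands) had an unadjusted p under 0.05. Wnt7a was at -3.06 ± 0.95 in FoP against CVP wild type (adjusted p = 0.0744), or 8.69 times as high in CVP per scaled count (95% counting interval 4.78 to 17.3). Leaving out clone 2.10, whose libraries are in neither group, brought Wnt7a (-3.06, adjusted p = 0.047) and Wnt4 (-0.38, adjusted p = 0.0358) past the threshold. Wnt9a was at 0.34 ± 0.12 (adjusted p = 0.108). The test of whether the labelled clones departed from wild type by unequal amounts in FoP and CVP called 2 of the 8 ligands, Wnt7a and Wnt9a, beside 15.8% of all tested genes. By an unadjusted p under 0.05 the count was 3, the other being Wnt5a. Without clone 2.9 the difference for Wnt4 was 2.08 (adjusted p = 0.000375), and without clone 2.10 it was 0.45 (adjusted p = 0.04). Without clone 2.9, Wnt5a (0.56, adjusted p = 0.00355) and Wnt7b (0.40, adjusted p = 0.0491) were called as well, and without clone 2.9 duplicate 2 so was Wnt5a (0.44, adjusted p = 0.0489).

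The makeup of the ligand pool shifted while its size fell moderately. Summed over the 10 ligands, the level was 73.2 ± 0.823 CPM per kb in CVP wild type (n = 2) and 61.5 ± 2.40 in its clones (n = 4), and 74.8 ± 2.79 and 66.6 ± 2.19 in FoP. Libraries of wild type and labelled clones did not overlap in this sum in either line. Wnt5b made up 12.03% ± 0.0882 of the sum in CVP wild type and 23.1% ± 5.25 in the clones, and 10.3% ± 0.181 and 17.1% ± 1.37 in FoP. Wnt4 went from 9.12% ± 0.176 to 1.51% ± 0.881 in CVP and from 6.88% ± 0.211 to 2.26% ± 0.216 in FoP. Wnt7b went from 24.2% ± 1.71 to 16.3% ± 2.46 in CVP and from 24.9% ± 0.348 to 18.6% ± 0.889 in FoP. Wnt10a, whose level was flat, took 31.6% ± 2.31 and 34.2% ± 0.568 in the wild types and 40.6% ± 3.17 and 39.6% ± 1.59 in the clones. These shares are a description without a test.

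Across the 12 libraries, which are 6 cultures in duplicate, the ligands that fell followed each other closely. Pearson's r on the log2 CPM scale was 0.95 for Wnt4 with Wnt7b, 0.93 for Wnt7b with Wnt9a and 0.89 for Wnt4 with Wnt9a. Wnt5b ran opposite to Wnt4 with r of -0.92. Wnt10a was close to no other ligand, its largest r in size being -0.42 with Wnt7a. All these values share the contrast of labels and are given as a description. Among 10596 well-expressed genes, those whose pattern was most like a ligand's were Mfap3l (r 0.99), Shroom4 and Abhd8 for Wnt4, Lsm11 (0.99), Grpel2 and Cdc25b for Wnt9a, and Dusp4 (0.99), Mpzl2 and Plekha2 for Wnt7b. For Wnt5b they were Dbndd2 (0.97), Tpcn1 and Plcb4, and for Wnt5a Pde9a (0.98), Gda and Xlr3a. For Wnt10a the closest was Sostdc1 (0.84), a secreted inhibitor of Wnt and BMP signalling, followed by Ppp4r2 and Chst3. These genes are the highest of 10596 correlations per ligand, picked without a test, so a high r alone shows no link. This holds most for Wnt10a, whose level was flat.

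Several Wnt genes lie side by side, some at like and some at unlike levels. Wnt3a (chromosome 11, 59248033 to 59290752, minus strand) and Wnt9a point away from each other, 16.2 kb apart with no gene between them, and held 0 against 396 to 1813 counts. Wnt6 lies 6.19 kb from Wnt10a on chromosome 1 on the same strand. Wnt10a was flat, with 3666 to 4363 counts, whereas Wnt6 went from 88 and 76 counts in CVP wild type to between 4 and 16 in the CVP clones. Wnt10b (chromosome 15, 98770712 to 98778150, minus strand) lies 11.7 kb from Wnt1, which held 0 to 8 counts: 0 or 2 in CVP wild type, 2 to 8 in the CVP clones and 0 to 3 in FoP. Wnt9b and Wnt3 lie 24.3 kb apart on chromosome 11, and each held at most 1 count in any library.

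Of the 9 Wnt genes outside the 10, 4 passed the filter. Of these, 2 (Wnt6 and Wnt16) fell in CVP and 0 were called in FoP; both were looked at after their values were seen. Wnt6 fell by 3.09 ± 0.44 on the log2 scale in CVP (adjusted p = 0.000105) and was at -0.90 ± 0.41 in FoP (adjusted p = 0.125), where Wnt6 alone of the 4 had an unadjusted p under 0.05. Wnt16 held 56 and 60 counts in CVP wild type and 0 to 8 in the CVP clones, 11.9 times as high in wild type per scaled count (95% counting interval 7.19 to 20.7), and in FoP 22 and 26 counts against 13 to 43. Wnt7a, Wnt6 and Wnt16 were thus low ligands near 1 CPM in CVP wild type and lower in the CVP clones.

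The rest of the pathway moved in both directions. The counts of each list stand beside 23.5% of all tested genes called higher and 22.9% called lower in CVP, and 13.5% and 15.3% in FoP. Of 8 genes for the acylation and secretion of Wnt proteins, all tested, 3 rose and 3 fell in CVP and 2 rose and 2 fell in FoP. Porcn, the enzyme that adds the lipid, rose by 0.70 ± 0.20 in CVP (adjusted p = 0.016) and was at 0.54 ± 0.20 in FoP (adjusted p = 0.068). Wls, the carrier, was at 0.11 ± 0.05 in CVP (adjusted p = 0.088) and rose by 0.14 ± 0.05 in FoP (adjusted p = 0.0485). Vps35, a retromer subunit that recycles Wls, fell by 0.39 ± 0.05 and 0.30 ± 0.05. Vps26a, of the same complex, rose by 0.19 ± 0.05 and 0.24 ± 0.05, and Snx3, a sorting nexin that acts with it, fell by 0.13 ± 0.05 and 0.16 ± 0.05. The retromer gene Vps29 rose by 0.37 ± 0.08 in CVP and was at 0.08 ± 0.08 in FoP (adjusted p = 0.546). Tmed2, a cargo receptor of the early secretory pathway, fell by 0.32 ± 0.06 in CVP and was at -0.11 ± 0.07 in FoP (adjusted p = 0.258). The median of the list was 0.01 in CVP and -0.02 in FoP, close to that over all genes.

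Of 18 receptors and co-receptors, 7 rose and 3 fell in CVP and 10 rose and 1 fell in FoP, with medians of 0.20 and 0.18. The Frizzled receptors Fzd2 and Fzd9 rose in both lines, by 0.75 ± 0.10 and 0.66 ± 0.24 in CVP and by 0.59 ± 0.10 and 1.46 ± 0.25 in FoP. Fzd5 fell by 0.82 ± 0.12 in CVP and by 0.44 ± 0.12 in FoP. Reck, which with Adgra2 forms a co-receptor particular to Wnt7a and Wnt7b, rose by 0.75 ± 0.23 in CVP (adjusted p = 0.0176) and by 0.91 ± 0.23 in FoP (adjusted p = 0.0111), whereas Adgra2 fell by 0.88 ± 0.28 in CVP (adjusted p = 0.0206) and was at -0.23 ± 0.28 in FoP (adjusted p = 0.599).

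Of 9 R-spondin ligands, their receptors and the ligases they act on, 5 were tested. Of these, 3 rose and 1 fell in CVP, and 2 rose and 1 fell in FoP, with medians of 0.21 and 0.55. Lgr5, an R-spondin receptor and stem cell marker, went from 1.03 ± 0.0792 to 5.95 ± 1.55 CPM in CVP. In FoP it went from 0.462 ± 0.0784 to 1.52 ± 0.503 CPM, and it was called higher in both lines (edgeR adjusted p = 7.54e-05 and 0.00293). These spreads in CPM are SD, over 2 libraries in wild type and over 4 libraries of 2 clones. Rnf43, a ligase that removes Frizzled from the surface, fell by 0.45 ± 0.07 and 0.29 ± 0.07. Lgr4 rose in both lines, by 0.21 ± 0.07 in CVP and 0.55 ± 0.07 in FoP. Lgr6 rose by 1.07 ± 0.29 in CVP and was at 0.77 ± 0.29 in FoP (adjusted p = 0.0812), with groups that did not overlap.

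Of 18 secreted and membrane inhibitors 9 were tested, of which 3 rose and 2 fell in CVP and 3 rose and 1 fell in FoP, with medians of 0.41 and 0.73. Trabd2b, a membrane protease that cleaves Wnt proteins, went from 0.0563 ± 0.0382 to 2.33 ± 0.423 CPM in CVP (SD over libraries, as for Lgr5). In FoP it went from 0.184 ± 0.0140 to 0.956 ± 0.269 CPM. Notum, which removes the lipid from Wnt proteins, fell by 2.49 ± 0.24 in CVP and by 1.05 ± 0.23 in FoP. Wif1, which binds Wnt proteins outside the cell, rose by 3.16 ± 0.60 in FoP and was at 0.38 ± 0.51 in CVP (adjusted p = 0.579). Dkk2, which acts on Lrp co-receptors, rose by 1.22 ± 0.34 in CVP and was at 0.18 ± 0.33 in FoP (adjusted p = 0.727). Kremen1, a receptor for Dkk proteins, fell by 0.20 ± 0.06 in CVP and was at -0.06 ± 0.06 in FoP (adjusted p = 0.5).

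Of 20 cytoplasmic and nuclear members of the beta-catenin pathway 19 were tested. Of these, 6 rose and 3 fell in CVP, and 4 rose and 5 fell in FoP, with medians of 0.07 and -0.03. The transcription factors Tcf7 and Tcf7l2 rose by 0.69 ± 0.07 and 0.42 ± 0.07 in CVP and by 0.44 ± 0.07 and 0.38 ± 0.07 in FoP, and the kinase genes Csnk1e and Gsk3a fell by 0.40 ± 0.06 and 0.24 ± 0.05 in CVP and by 0.52 ± 0.06 and 0.26 ± 0.05 in FoP. Of 18 beta-catenin targets 15 were tested, with 6 rising and 4 falling in CVP and 3 rising and 6 falling in FoP (medians 0.08 and 0.05). Members of this list moved apart: the feedback gene Nkd2 rose by 2.16 ± 0.15 and 1.21 ± 0.14, Notum fell as above, and Axin2, a widely used readout of the pathway, was at 0.14 ± 0.13 in CVP (adjusted p = 0.413) and fell by 0.39 ± 0.13 in FoP (adjusted p = 0.0379). Bambi, a pseudoreceptor of TGF-beta signalling, fell by 0.46 ± 0.08 in CVP and was at 0.16 ± 0.08 in FoP (adjusted p = 0.174). Of 14 planar cell polarity genes, 8 rose and 1 fell in CVP and 4 rose and 1 fell in FoP (medians 0.21 and 0.19). Prickle1 and Prickle2 rose by 1.25 ± 0.13 and 1.04 ± 0.09 in CVP and by 0.65 ± 0.13 and 1.16 ± 0.09 in FoP, and Scrib fell by 0.18 ± 0.06 and 0.21 ± 0.06.

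**Figure D4:**
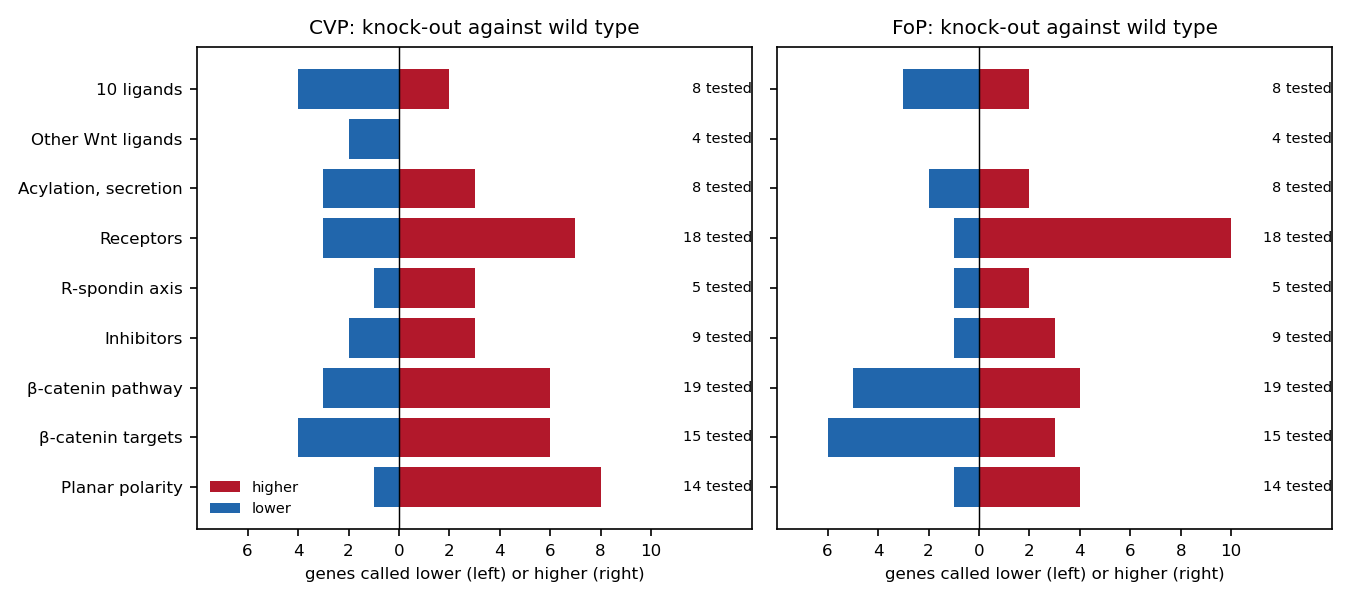
Number of genes called by edgeR (adjusted p under 0.05) in each list of Wnt pathway genes, lower to the left and higher to the right of 0, with the number tested at the right: the left panel is CVP and the right panel FoP, labelled clones against wild type. The 10 ligands have more lower than higher calls in both lines, and receptors and planar polarity genes have more higher than lower calls.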

How the data were processed

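Poly(A) RNA of 12 organoid libraries was sequenced from stranded libraries, per the labels' protocols. The values are the deposited table of raw counts per gene. Per the submitters' processing notes the authors used STAR, featureCounts and hg38, with no versions; the table holds mouse symbols, of which 96.1% match exactly 1 gene of GENCODE M21 (GRCm38), the source of the coordinates and exon lengths given here. Neither the strand setting nor the mouse genome of the counting is known from the sources used here.

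Libraries were grouped into 4 arms by line and label. Genes were filtered with filterByExpr (17076 of 55367 tested). After TMM scaling they were fitted with the robust quasi-likelihood functions of edgeR 4.0.16 (R 4.3.3). Adjusted p-values are Benjamini-Hochberg over all tested genes, with a threshold of 0.05 for a call. Clones were compared in a fit of 6 groups. The SE of a log2 fold change is its size over the root of F, an approximation. CPM used TMM-scaled totals, 59.3 to 73.6 M counts before scaling. Counts of 2 and 4 (20289 and 10030 values) were common beside 1 and 3 (20007 and 6626), so should each mate have been counted, the 95% counting intervals and the limit of 3 counts are too narrow. Members and lists were chosen with earlier results of these data known. All 10 ligands were named; from each pathway list and line the 2 called genes with the largest change each way and a mean log2 CPM of at least 0, with their values in the other line; and for each ligand of that level the 3 genes closest by Pearson's r among non-predicted genes with a mean log2 CPM of at least 2. Wnt6, Wnt16, AU022754, Gm2670, neighbouring genes and single cell type markers were added after their values were seen. Alternatives were DESeq2 1.42.0 size factors and Wald test, other filters, limma 3.58.1 voom with culture as block, 6 groups, a replicate block, summed duplicates, halved counts, and each library or clone left out. On simulated data the CVP comparison recovered 87 of 100 genes changed 2-fold and 97 of 100 changed 4-fold, with 9 false calls among 16876 unchanged genes. The same figures were 85, 96 and 7 for FoP, and 80, 91 and 9 for clone 2.10 against 2.9. They were 75, 90 and 12 for the difference of the lines, and 78, 95 and 13 for wild type against wild type. Simulated duplicates shared no culture effect. The changed genes all had a mean log2 CPM above 0, so the recovery does not cover Wnt7a (-2.12) and Wnt10b (-1.02).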

Additional observations from a re-analysis of the deposited data

Results flagged for a closer look

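The test of the difference between the 2 lines, in how clones labelled Foxe1 knock-out departed from wild type, called 2 ligands. Among all tested genes 15.8% were called in the same test. For Wnt7a the effect in FoP minus that in CVP was 4.78 ± 1.25 on the log2 scale (edgeR adjusted p = 0.0225): it fell from 52 and 60 counts to between 0 and 5 in CVP, and in FoP it held 2 and 10 counts in wild type and 2 to 12 in the clones. FoP wild type held so few Wnt7a counts that a fall there could hardly be seen. The Wnt7a difference therefore cannot tell an unequal response from the unequal wild type levels. Its adjusted p ranged from 0.00517 to 0.193 over 23 alternatives. For Wnt9a the difference was 0.55 ± 0.15 (adjusted p = 0.0235; 0.00353 to 0.248 over 25 alternatives), with a drop in all 8 libraries of labelled clones in both lines, larger in CVP. No single ligand library of a labelled clone stood apart from the other 3 of its line by Dixon's ratio.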

How the results depend on the processing

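The numbers of all genes called, which form the background of the ligand counts, depended most on how duplicates were treated. Summing duplicates per culture gave 3420 calls in CVP and 372 in FoP by edgeR (7929 and 4921 with libraries kept apart), and 0 for the difference of the lines and 0 for wild type against wild type, with 2663 and 1643 genes at an unadjusted p under 0.05. For the difference (2692), voom with culture as block gave 1422 and 6 groups gave 4424. For the wild types (1140), DESeq2 gave 2030, voom 522 and 6 groups 2788. Without a filter, clone 2.10 against 2.9 had 1494 calls (926) and clone 2.5 against 2.4 had 1913 (1239). Leaving out 1 library at a time gave 5238 to 7975 calls in CVP, 2668 to 5079 in FoP, 1103 to 2903 for the difference, 101 to 1235 for the wild types, 549 to 1026 for clone 2.10 against 2.9, 509 to 1627 for clone 2.5 against 2.4, 3555 to 5993 for clone 2.4 and 3911 to 6284 for clone 2.5 against wild type. The lowest counts came without a wild type or clone library of the contrast itself, which leaves 1 library assumed to vary like the others.

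Over all comparisons and settings, 1513 values of the ligands kept their direction and side of the threshold, 49 lost the call, 21 gained it and 23 changed sign. Of the 5 ligands called in both lines, Wnt9a kept both calls in all 25 settings. With duplicates summed, Wnt4 (adjusted p = 0.0713 in CVP and 0.241 in FoP), Wnt5b (0.127 and 0.258), Wnt10b (0.0697 and 0.195), Wnt7b in FoP (0.112) and the differences for Wnt7a (0.193) and Wnt9a (0.248) lost their calls, and voom with culture as block ended the FoP calls of Wnt5b (0.0653) and Wnt10b (0.207) and the Wnt9a difference (0.0674). With 6 groups in 1 fit, whose spread is taken within cultures, Wnt5a was called in CVP (0.00113) and FoP (0.0281), and the differences of Wnt4 (0.000137) and Wnt5a (0.00132) and the wild type contrast of Wnt7a (0.0302) were called. Without a filter Wnt5b lost its call in FoP (0.0793), and with halved counts so did Wnt10b (0.0703), while Wnt7a between wild types gained one under both (0.0379 and 0.0316) and Wnt7b between the CVP clones without a filter (4.84e-05) and by DESeq2 (0.0424). Where the cause is not in the setting's construction, it was not tested.

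Signs changed only where no call stood. Wnt10a in clone 2.4 was at 0.0040 without a filter. With a clone left out, the difference for Wnt5b was 0.14 (without 2.10) and 0.0094 (without 2.4), that for Wnt10a 0.00052 (without 2.4), and Wnt10a in FoP -0.0061 (without 2.5). With single libraries left out, Wnt7a ranged from -0.59 to 1.81 in FoP, from -0.69 to 1.72 in clone 2.4, from -1.38 to 1.91 in clone 2.5 and from -1.47 to 0.92 in clone 2.5 against 2.4. Wnt10a ranged from -0.0090 to 0.10 in FoP, -0.15 to 0.022 in the difference, -0.031 to 0.14 in clone 2.10 and -0.076 to 0.063 in clone 2.4. The differences of Wnt5b and Wnt10b ranged from -0.23 to 0.0057 and from -1.53 to 3.74, Wnt5a between wild types from -0.14 to 0.0043 and Wnt9a in clone 2.5 against 2.4 from -0.18 to 0.043.

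Duplicate numbers are a label alone. The deviations of same-numbered libraries correlated at -0.06 to 0.11 over 15 pairs of cultures, 1 of them over 0.1, so the numbers were not taken as pairs. With the duplicate number as a block, 1 ligand call was lost, Wnt10b in FoP (2.82, adjusted p = 0.0515). Depth limits Wnt3, Wnt3a, Wnt7a and Wnt10b, which rest on few counts. DESeq2 gave Wnt7a no adjusted p in the difference and the wild type contrast, and the filter of 1 CPM in 4 libraries left out Wnt7a and Wnt10b.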
